A study of Homo sapiens with 6 samples.

Results

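Glioblastoma cells occupy several transcriptional states, and 10 genes that mark the mesenchymal state, neural stem cells or glial lineages were followed in U87MG cells treated with RSL3. The genes were CD44, VIM, CHI3L1, S100A6 and ANXA1, which are usually read as mesenchymal markers, NES and SOX2, which are read as stem cell markers, and SOX9, GFAP and OLIG2, which mark glial and progenitor lineages. They were chosen by name, with earlier results of these data known, from the 65988 gene identifiers counted in each library. All 10 matched 1 identifier each. Of these, 9 had enough counts to be tested and SOX2 did not.

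U87MG, an established line of human glioblastoma cells, was obtained from ATCC, is wild type in genotype by its label and was grown in medium with serum. The stock that ATCC distributes is known not to match the tumor from which the line was first described, and 1 line cannot stand for the states of glioblastoma at large. Cells received vehicle (control, 3 libraries) or 2 µM RSL3 (3 libraries), a compound that inhibits the lipid peroxidase GPX4 and so starts ferroptosis. The exposure was 24 h by a figure legend of the study, and the labels give no time. Nothing in the labels says that the libraries of a group came from separate cultures, so the p-values measure the spread between these libraries, which may be technical.

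In tumors, the mesenchymal state carries high levels of hyaluronan receptor, intermediate filament and calcium-binding protein genes, and it is linked to wound-like programs and to the transcription factors STAT3, C/EBPβ and FOSL1. The stem and progenitor states are held by factors such as SOX2 and OLIG2, and astrocyte-like cells express GFAP and SOX9. Cells in the mesenchymal state have been linked to a strong dependence on GPX4.

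Total counts ranged from 27813462 to 43306335 per library, and TMM factors, which correct library sizes for composition, lay between 0.995 and 1.01. A normalized count is a count scaled to the mean library size of 34118585 with these factors. Levels of different genes are compared only as RPKM, reads per kilobase of merged exons scaled to depth. The share of counts in mitochondrially encoded genes was 0.918% to 1.26% in the control libraries and 0.840% to 0.912% in the RSL3 libraries, and its part in the results was not tested. In the MHC region, 9.3% of 183 protein-coding genes reached 100 counts summed over the libraries, against 60.9% of all 20046, and the broadly expressed CLIC1 there had at most 2 counts in a library. Low counts in that region, which holds AIF1, POU5F1, MOG and CLIC1 of the lists used here, are therefore not read as absence. The groups were compared with edgeR's quasi-likelihood F test on 16105 genes, and a gene is called at a Benjamini-Hochberg adjusted p under 0.05. In that fit 25.6% of all genes tested were called, 12.9% higher and 12.7% lower in RSL3-treated cells.

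Control U87MG cells carried abundant mesenchymal marker RNA and next to none of the stem cell marker SOX2. S100A6 led at 1201 ± 80.4 RPKM (SD, n = 3), followed by VIM at 387 ± 5.48, ANXA1 at 336 ± 4.16, CD44 at 72.4 ± 1.67 and CHI3L1 at 53.1 ± 2.87 RPKM. These 5 stood between the 95.3 and 99.9 percentiles of the tested genes with an annotated exon length. The lineage and stem markers were much lower, with SOX9 at 4.77 ± 0.371 RPKM (SD, n = 3), OLIG2 at 2.65 ± 0.0697, NES at 0.805 ± 0.0258 and GFAP at 0.273 ± 0.0302 RPKM. SOX9 stood at the 56.4 percentile, OLIG2 at 44.3, NES at 25.5 and GFAP at 11.7. In each of the 9 pairs of neighbors in this order the control libraries did not overlap. In RSL3-treated cells the order in RPKM was the same except that ANXA1, at 413 ± 19.4 RPKM (SD, n = 3), stood above VIM, at 316 ± 5.67 RPKM. Again the libraries of neighbors did not overlap. With the longest transcript as the length in place of merged exons, the order in each group was the same. Neither length allows for the 24.6% of VIM and 19.9% of GFAP exon bases shared with other genes, where unstranded counting may lose reads. ANXA1 shares no exon base, so whether it passed VIM in RSL3-treated cells is not settled.

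**Figure D1:**
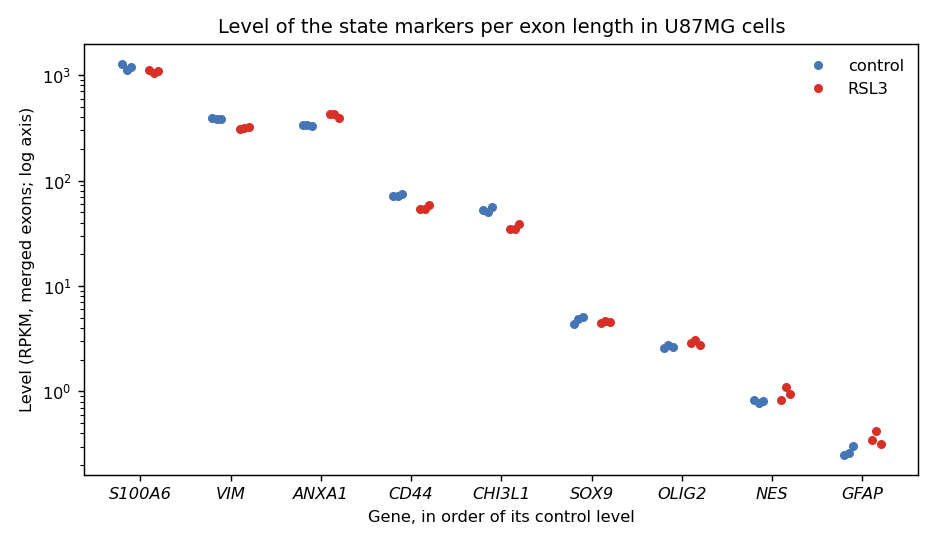
RPKM level (log axis) of the 9 tested markers in each of the 6 libraries, with genes in the order of their control level and 1 point per library. The lowest library of a mesenchymal marker is at 34.5 RPKM (CHI3L1) and the highest of the other 4 at 5.11 RPKM (SOX9). ANXA1 is above VIM only in the RSL3 libraries, in RPKM not corrected for exon bases that VIM shares with other genes. SOX2, with at most 2 counts in a library, is not drawn.

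The abundant markers were called and the rare tested ones were not, but the size of the change did not separate them. GFAP, not called, had a log2 fold change of 0.40 with a wide interval. This is larger in size than the changes of CD44, VIM, S100A6 and ANXA1, which were called. Of the 9 tested markers, 5 were called, with CD44, VIM, CHI3L1 and S100A6 lower and ANXA1 higher in RSL3-treated cells. Their count stands beside 25.6% of all genes tested, and beside 51.8% of the 562 tested genes with a mean normalized count of at least 10000, a range that holds 4 of the 5 called markers. The changes were modest, since no called marker reached a log2 fold change of 1 in either direction. The control and RSL3 libraries did not overlap in 7 of the 9 tested markers, where 38.6% of all genes tested showed this. The median log2 fold change of the 9 was -0.06, and that of all genes tested was -0.0044.

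CHI3L1 (ENSG00000133048; chromosome 1, 203178931 to 203186704, minus strand of GRCh38) encodes a secreted chitinase-like glycoprotein that binds sugars without cutting chitin. Its normalized counts were 5994, 5826 and 6461 in the control libraries and 3955, 3978 and 4476 in the RSL3 libraries. Every RSL3 library lay well below every control library. CHI3L1 fell by 0.56 on the log2 scale (standard error 0.04, edgeR adjusted p = 7.06e-09), the largest decrease among the markers, and in RPKM from 53.1 ± 2.87 to 36.1 ± 2.57 (SD, n = 3).

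CD44 (ENSG00000026508; chromosome 11, 35138882 to 35232402, plus strand) encodes the cell surface receptor for hyaluronan, which many splice forms share, and counts per gene do not tell these forms apart. Its normalized counts were 24265, 24469 and 25337 in the control libraries against 18347, 18417 and 19871 in the RSL3 libraries. The groups did not overlap, and CD44 fell by 0.39 (standard error 0.03, edgeR adjusted p = 1.20e-08), to 0.765 of its control level. Other genes cover 1.54% of its exon bases.

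VIM (ENSG00000026025; chromosome 10, 17228241 to 17237593, plus strand) encodes vimentin, the main intermediate filament protein of mesenchymal cells. Its normalized counts were 69403, 67781 and 67676 in control and 54999.8, 55701 and 56976 in RSL3-treated cells. All RSL3 libraries were lower, and VIM fell by 0.29 (standard error 0.03, edgeR adjusted p = 2.20e-08). VIM alone took 0.198% to 0.204% of all counts in control and 0.160% to 0.167% in RSL3-treated cells. The reads were counted without regard to strand, and other genes, the antisense gene VIM-AS1 among them, overlap 24.6% of its exon sequence. VIM-AS1 itself had 104 to 173 counts per library, against at least 47847 for VIM. These counts do not show how many VIM reads were lost in the shared bases.

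S100A6 (ENSG00000197956; chromosome 1, 153534599 to 153536244, minus strand) encodes calcyclin, a small calcium-binding protein. Its normalized counts were 42654, 37392 and 39289.8 in control and 36859.6, 34779 and 35959 in RSL3-treated cells. The groups did not overlap, but the lowest control library lay close to the highest RSL3 library. S100A6 fell by 0.15 (standard error 0.04, edgeR adjusted p = 0.00400), and the call was lost in DESeq2 without surrogate variables (adjusted p = 0.0695) and with 1 surrogate variable (adjusted p = 0.0588). Other genes cover 3.81% of its exon bases.

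ANXA1 (ENSG00000135046; chromosome 9, 73151865 to 73170393, plus strand) encodes annexin A1, a protein that binds membrane phospholipids in the presence of calcium and restrains inflammation. Its normalized counts were 51548, 51156 and 50310.0 in control and 64457, 64477 and 59369 in RSL3-treated cells. Here every RSL3 library was higher, and ANXA1 rose by 0.30 (standard error 0.03, edgeR adjusted p = 1.68e-07). Because ANXA1 rose while CD44 and VIM fell, the ratio of ANXA1 to CD44 counts within a library went from between 1.99 and 2.12 in control to between 2.99 and 3.51 in RSL3-treated cells. The ratio of ANXA1 to VIM counts went from between 0.743 and 0.755 in control to between 1.04 and 1.17 in RSL3-treated cells. Both ratios are of counts not corrected for exon length, so only their change is read, not their size. No exon base of ANXA1 or CHI3L1 is shared with another gene of the annotation.

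In 4 of the 5 called markers, CHI3L1, CD44, VIM and ANXA1, RSL3 replicate 3 was the RSL3 library nearest to the control mean. Without that library the log2 fold changes were -0.62 for CHI3L1, -0.42 for CD44, -0.30 for VIM, -0.15 for S100A6 and 0.34 for ANXA1, and all 5 were called.

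**Figure D2:**
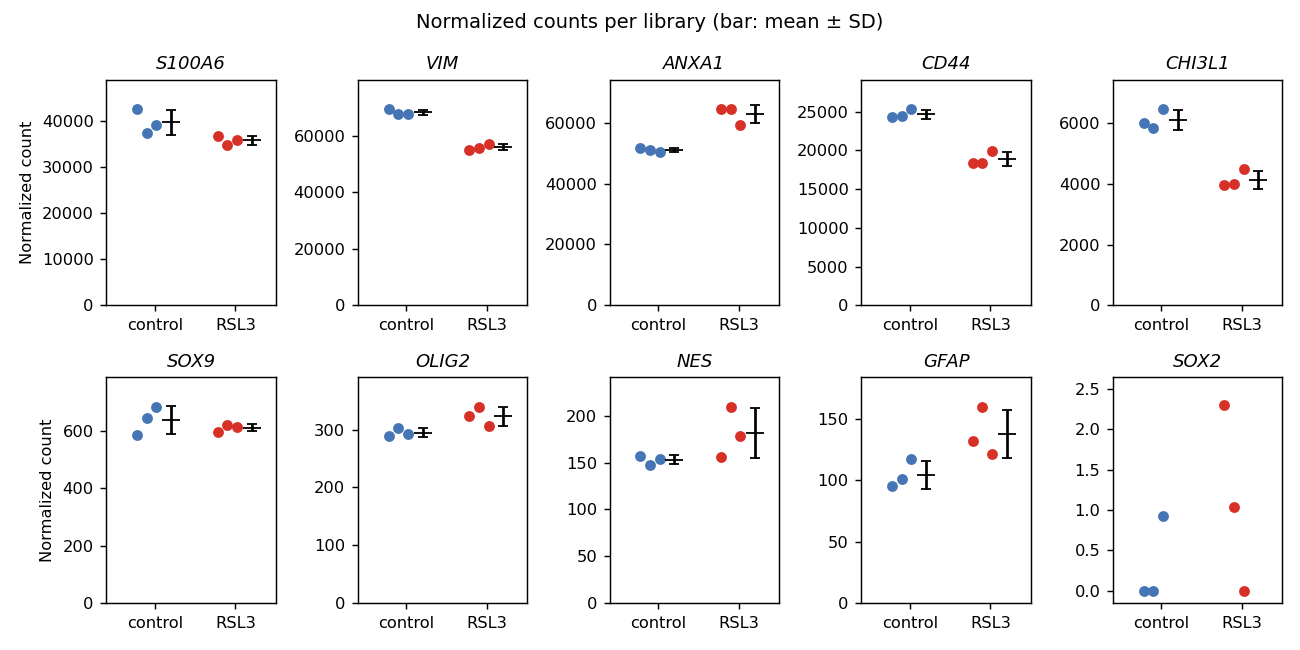
Normalized counts of each marker in the 3 control and 3 RSL3 libraries (points), with the mean and SD of each group beside them except for SOX2; each axis has its own scale. CD44, VIM, CHI3L1 and S100A6 are lower and ANXA1 is higher in every RSL3 library, whereas SOX9 and NES overlap between the groups.

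The rare markers were not called, and their intervals show which changes these libraries leave possible. OLIG2 (ENSG00000205927; chromosome 21, 33025935 to 33029196, plus strand), a basic helix-loop-helix factor of oligodendrocyte progenitors, had normalized counts of 289, 304 and 292 in control and 323, 339.6 and 306 in RSL3-treated cells. The RSL3 libraries all lay above the control libraries, with a log2 fold change of 0.13 (95% interval -0.06 to 0.33, edgeR adjusted p = 0.347). Its paralog and neighbor OLIG1 and the oligodendroglial factor SOX10 had 0 counts in all 6 libraries, so OLIG2 stood without them in this line. GFAP (ENSG00000131095; chromosome 17, 44903159 to 44916937, minus strand), the intermediate filament of astrocytes, had normalized counts of 95.1, 101 and 117 in control and 132, 159.9 and 122 in RSL3-treated cells. Its RSL3 libraries were also all higher, by a log2 fold change of 0.40 (95% interval 0.07 to 0.74), but the edgeR adjusted p was 0.0726. Without RSL3 replicate 3 the log2 fold change of GFAP was 0.49 and it passed the threshold (edgeR adjusted p = 0.0439). Other genes, CCDC103 and FAM187A on the opposite strand, overlap 19.9% of its exon sequence, and both were at 0 counts in every library. Reads in shared bases may be counted for neither gene, so these counts do not show how many GFAP reads were lost.

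NES (ENSG00000132688; chromosome 1, 156668763 to 156677407, minus strand) encodes nestin, an intermediate filament of neural stem cells. Its normalized counts were 157, 148 and 154 in control and 156, 209.8 and 179 in RSL3-treated cells. The RSL3 libraries were spread more widely and overlapped the control libraries (log2 fold change 0.25, 95% interval -0.03 to 0.53, edgeR adjusted p = 0.203). SOX9 (ENSG00000125398; chromosome 17, 72121020 to 72126416, plus strand), an SRY-related factor of astrocytes and cartilage, had normalized counts of 586, 647 and 685 in control and 598, 623 and 615 in RSL3-treated cells. All RSL3 values lay inside the control range, and the log2 fold change was -0.06 (95% interval -0.21 to 0.09, edgeR adjusted p = 0.615).

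SOX2 (ENSG00000181449; chromosome 3, 181711925 to 181714436, plus strand), a factor that maintains neural stem cells, had 0, 0 and 1 counts in control and 2, 1 and 0 counts in RSL3-treated cells. All values lie below 3 counts, the limit that a count of 0 allows, which is 0.0693 to 0.108 CPM in these libraries and covers counting error only. No fold change is given, and a level of SOX2 was not detectable at this depth in either group.

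**Figure D3:**
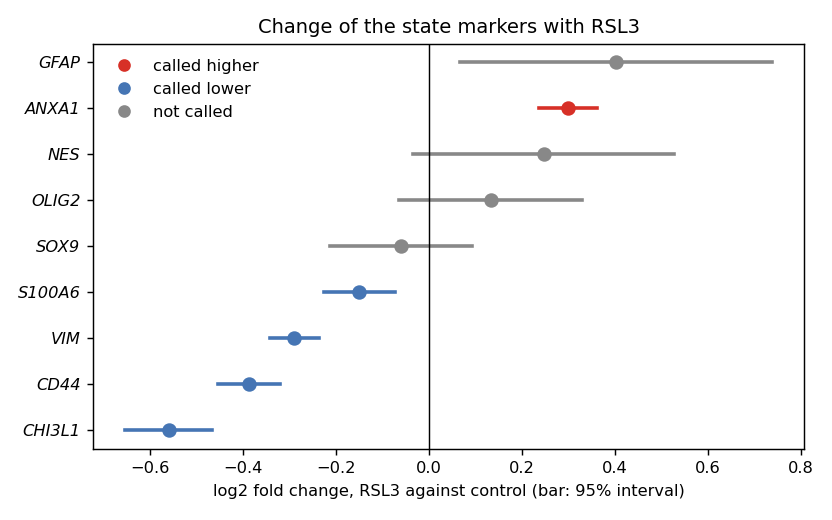
Log2 fold change of the 9 tested markers in RSL3-treated against control cells (points) with 95% intervals from the edgeR fit. CHI3L1, CD44, VIM and S100A6 lie below 0 and ANXA1 above 0, whereas the intervals of SOX9, OLIG2 and NES include 0 and GFAP misses the adjusted threshold.

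The promoters of called markers were read for motifs of factors tied to the mesenchymal state. RefSeq (GRCh38.p14) gave the 250 bases before the start of 7 of the 10 genes. The 3 called markers whose RefSeq start is also the start of the gene in the GENCODE v44 annotation are shown, 5′ to 3′ on the strand of the gene, to set 2 genes that fell, CHI3L1 and VIM, beside ANXA1, which rose. The windows are chr1:203186705-203186954 (minus strand) for CHI3L1, chr10:17227991-17228240 (plus strand) for VIM and chr9:73151615-73151864 (plus strand) for ANXA1. Capitals mark matches to the motifs searched on both strands.
CHI3L1: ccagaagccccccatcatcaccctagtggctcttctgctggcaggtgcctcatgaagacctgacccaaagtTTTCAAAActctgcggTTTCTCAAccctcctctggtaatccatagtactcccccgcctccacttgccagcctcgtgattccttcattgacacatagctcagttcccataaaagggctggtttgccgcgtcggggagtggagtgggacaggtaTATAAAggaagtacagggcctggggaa
VIM: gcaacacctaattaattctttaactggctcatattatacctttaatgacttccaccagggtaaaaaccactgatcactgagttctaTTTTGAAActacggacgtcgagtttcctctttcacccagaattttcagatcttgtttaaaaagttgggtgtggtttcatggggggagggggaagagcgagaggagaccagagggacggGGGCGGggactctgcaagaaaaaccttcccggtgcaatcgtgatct
ANXA1: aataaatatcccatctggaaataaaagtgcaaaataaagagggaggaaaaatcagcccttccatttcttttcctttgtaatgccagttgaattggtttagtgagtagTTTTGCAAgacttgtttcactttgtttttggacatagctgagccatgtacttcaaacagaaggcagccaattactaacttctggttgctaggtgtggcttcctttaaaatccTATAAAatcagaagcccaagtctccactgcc

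The motifs were AP-1 (TGANTCA), STAT (TTCNNNGAA), C/EBP (TTNNGNAA), the antioxidant response element (TGACNNNGC), the GC box (GGGCGG), the TATA box (TATAAA) and NF-kB. Each of the 3 windows holds a C/EBP match, 2 of them in CHI3L1, and 33.2% of all 35116 RefSeq promoters of this length hold at least 1. CHI3L1 and ANXA1 also hold a TATA box, at 27 to 22 and at 31 to 26 bases before the start, which 10.7% of all promoters hold, and VIM holds a GC box in its place, as do 42.6%. None of the 3 holds an AP-1, STAT, antioxidant response element or NF-kB match, found in 6.57%, 6.57%, 10.9% and 5.21% of all promoters. The windows of CD44 and S100A6 hold GC boxes, and that of CD44 an antioxidant response element match (GCTTAGTCA) at 111 to 103 bases before the start. That of S100A6 also holds a C/EBP match (TTGTGTAA) at 120 to 113 bases before the start. The matches are descriptions of these letters, and the motifs of CHI3L1, which fell, and of ANXA1, which rose, were of the same kinds.

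A wider list of 46 mesenchymal-like genes, including 5 of the markers, moved mostly in the direction of CD44 and VIM. The list was written from general knowledge, but with earlier results of these data known, so its direction is not independent evidence. Of its 40 tested genes, 9 were called higher and 25 lower, with a median log2 fold change of -0.14. Of all genes tested, 12.9% were called higher and 12.7% lower. Among the 6355 with a mean normalized count of at least 1000, these shares were 21.8% and 19.8%. Leaving out the 5 markers, 8 of 35 were called higher and 21 lower, with a median of -0.13. Among the lower genes, LGALS3, which encodes the sugar-binding protein galectin-3, fell from 30396 ± 1024 to 21637 ± 517 (SD, n = 3) normalized counts (-0.49 on the log2 scale, edgeR adjusted p = 1.72e-10). RCAN1, an inhibitor of calcineurin, fell by 0.48 (edgeR adjusted p = 1.07e-09), and 13.2% of its exon bases are shared with other genes. NAMPT, the rate-limiting enzyme of NAD salvage, went the other way with ANXA1, from 158517 ± 3343 to 197726 ± 4684 (SD, n = 3) normalized counts (0.32 on the log2 scale, edgeR adjusted p = 3.82e-09). SOD2 was not analysed here.

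The 28 regulators and signals of the mesenchymal state were all tested, with 5 called higher, 13 lower and a median log2 fold change of -0.03. The share called was 64.3%, beside 25.6% of all genes tested and 41.6% of those with a mean normalized count of at least 1000. FOSL1, an AP-1 subunit, had normalized counts of 3009, 3104 and 3135 in control and 5797, 5911 and 5024 in RSL3-treated cells. Its RSL3 libraries stood far above the control libraries, and FOSL1 rose by 0.86 (standard error 0.05, edgeR adjusted p = 3.99e-11). RELB, a subunit of NF-kB, rose by 0.30 (edgeR adjusted p = 4.22e-06). Of the other factors most tied to the state, CEBPB, the most abundant of the list at 253 RPKM in control, rose by 0.13 (edgeR adjusted p = 0.00219), and STAT3 went the other way. STAT3 had normalized counts of 2347, 2518 and 2649 in control and 2297, 2313 and 2229 in RSL3-treated cells, so the lowest control library lay close to the RSL3 libraries. The log2 fold change of STAT3 was -0.13 (standard error 0.04, edgeR adjusted p = 0.0268), and its call was lost in DESeq2 with 0 to 2 surrogate variables and without control replicate 2 or 3 or any one RSL3 library, where adjusted p lay between 0.0506 and 0.195. TWIST1, a mesenchymal basic helix-loop-helix factor, fell by 0.58 (edgeR adjusted p = 1.53e-07), and TGFBI, a matrix protein induced by TGF-β, fell by 0.48 (edgeR adjusted p = 5.16e-08). Exon bases shared with other genes make up 12.6% of CEBPB and 7.06% of TWIST1.

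The protein families of the markers are given by their counts, beside 12.9% of all genes tested called higher and 12.7% lower. In the S100 family, 9 of 19 genes were tested, and 0 were called higher and 4 lower in the edgeR fit (median log2 fold change -0.15). S100A3 fell by 0.69 (edgeR adjusted p = 7.02e-05) and S100A11, the second most abundant at 801 RPKM in control against 1201 for S100A6, fell by 0.20 (edgeR adjusted p = 8.98e-05). S100A2 was higher in every RSL3 library but not called (0.26 on the log2 scale, edgeR adjusted p = 0.0871). S100B, the astrocyte member of this family, had at most 1 count in a library. Among 10 tested annexin genes, 2 were called higher and 5 lower, with a median of -0.07. ANXA10 was the other annexin called higher, from 32.1 to 75.9 mean normalized counts (1.22 on the log2 scale, edgeR adjusted p = 0.00115), while ANXA6 and ANXA11 fell by 0.26 and 0.24 (edgeR adjusted p = 4.97e-06 and 0.000121).

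Of 18 intermediate filament genes, 13 were tested, VIM was the single gene called lower, and LMNB2, a nuclear lamin, was the single gene called higher (0.29 on the log2 scale, edgeR adjusted p = 2.13e-06), with a median of -0.03. These 15.4% of the list stand beside 25.6% of all genes tested. In the SOX family 8 of 19 genes were tested, with 0 called higher and 2 lower in the edgeR fit, a share of 25% beside 25.6% of all genes, and a median of -0.09. These were SOX4, from 109 to 69.7 mean normalized counts (-0.64 on the log2 scale, edgeR adjusted p = 0.00948), and SOX12 (-0.13 on the log2 scale, edgeR adjusted p = 0.0344), which was the most abundant SOX gene at 11.3 RPKM in control.

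Genes that act with CD44 changed in both directions. Of 20 ligands, proteases and cytoskeletal linkers, 19 were tested, with 3 called higher, 6 lower and a median log2 fold change of -0.10. The share called was 47.4%, beside 25.6% of all genes tested and 41.6% of those with a mean normalized count of at least 1000. VCAN, the hyaluronan-binding proteoglycan versican, fell from 1705 ± 36.9 to 909 ± 41.6 (SD, n = 3) normalized counts (-0.91 on the log2 scale, edgeR adjusted p = 4.22e-11). Of the proteases that cut CD44 at the cell surface, ADAM10 fell by 0.26 (edgeR adjusted p = 1.02e-05) and ADAM17 rose by 0.44 (edgeR adjusted p = 1.43e-08), with 11.7% of the exon bases of ADAM17 shared with other genes. MMP14, the most abundant of the list at 143 RPKM in control, fell by 0.19 (edgeR adjusted p = 6.23e-05). EZR, which encodes ezrin and ties the tail of CD44 to actin, rose by 0.43 (edgeR adjusted p = 3.91e-07).

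Among 8 tested relatives and binding partners of CHI3L1, 1 was called higher and 2 lower, with a median of -0.07. The share called was 37.5%, beside 25.6% of all genes tested. The paralog CHI3L2 had normalized counts of 383, 317 and 406 in control and 161, 144 and 188 in RSL3-treated cells. It fell by 1.17 (standard error 0.12, edgeR adjusted p = 2.75e-07), beside the 0.56 of CHI3L1, and the difference between them was not tested. IL13RA2, a CHI3L1 receptor, rose by 0.41 (edgeR adjusted p = 5.28e-07), and LGALS3 is the other lower gene of this list.

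Of the stem and lineage lists, the oligodendrocyte progenitor-like one had the fewest genes with enough counts to test. Of 24 glioma stem cell markers 16 were tested, with 1 called higher, 5 lower and a median of 0.08. The share called was 37.5%, beside 25.6% of all genes tested. CD44 is 1 of the 5 lower genes. Leaving out the markers followed here, 1 of 13 was called higher and 4 lower, with a median of 0.07. ID3 and ID1, inhibitors of basic helix-loop-helix factors that act downstream of BMP, fell by 1.21 and 1.08 (edgeR adjusted p = 3.38e-12 and 3.07e-09), and ALDH1A3, an enzyme of retinoic acid synthesis used to mark mesenchymal stem-like cells, rose by 0.19 (edgeR adjusted p = 0.000475), with 33.3% of its exon bases shared with other genes. MSI1, NANOG, ALDH1A1 and LGR5 had at most 3 counts in every library, as did SOX2. Of 32 astrocyte-like genes 21 were tested, with 5 called higher, 5 lower and a median of -0.06, a called share of 47.6% beside the same 25.6%. The endothelin receptor gene EDNRB rose from 47.9 to 118 mean normalized counts (edgeR adjusted p = 0.000306), SPARC and the glutamate transporter gene SLC1A3 fell by 0.59 and 0.56 (edgeR adjusted p = 2.02e-07 and 7.06e-06), and CLU was the most abundant at 107 RPKM in control. Of 19 oligodendrocyte progenitor-like genes only OLIG2 and 4 others were tested, with CSPG4 called higher (0.15 on the log2 scale, edgeR adjusted p = 0.0102) and VCAN lower (median 0.15).

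Markers of other cell types were summed in each library. The sum of the fibroblast and pericyte markers was lower in every RSL3 library than in every control library, and that of the neuron markers was slightly higher. The microglia and macrophage markers summed to 0.654 to 1.02 RPKM in control and 0.586 to 0.905 RPKM in RSL3-treated cells over 10 genes, with PTPRC, CX3CR1 and TYROBP at no more than 3 counts in any library. CD68 of this list shares 85.6% of its exon bases with other genes, where unstranded counting may lose reads, so the sum may be too low. None of the 3 that were tested was called in the edgeR fit (largest level CSF1R, log2 fold change -0.27, edgeR adjusted p = 0.312). The endothelial markers summed to at most 0.873 RPKM in any library, with KDR called higher (log2 fold change 0.54) and VWF lower (-1.33). The 6 neuron markers summed to 3.92 to 4.26 RPKM in control and 4.33 to 4.49 RPKM in RSL3-treated cells, with SYT1 called higher and SNAP25 lower. The 6 oligodendrocyte markers summed to 12.4 to 12.99 RPKM in control and 12.5 to 12.99 RPKM in RSL3-treated cells, most of it from CNP at 12.5 RPKM in control, and MBP was called higher. The 8 fibroblast and pericyte markers summed to between 40.3 and 47.6 RPKM in control and between 24.5 and 29.5 RPKM in RSL3-treated cells. Of 6 tested, 5 were called lower and 0 higher, beside 12.7% and 12.9% of all genes tested. COL1A2 had 7012, 6758 and 8094 normalized counts in control and 2876, 2967 and 3794 in RSL3-treated cells (-1.18 on the log2 scale, edgeR adjusted p = 2.22e-10). COL1A1 had a log2 fold change of -0.53 (edgeR adjusted p = 6.97e-06). The fibroblast markers COL3A1 and THY1 had at most 1 count in a library. All libraries were made from the cultured line U87MG, so these sums are not read as amounts of other cells. The fibroblast and pericyte list moved in the direction of CD44, VIM and CHI3L1, and whether its decrease is linked to theirs was not tested. In bulk RNA, fewer cells in a state and less RNA per cell cannot be told apart.

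The genes whose log2 normalized counts followed the called markers most closely over the 6 libraries were sought among 11463 others with a mean normalized count of at least 100. For CHI3L1 these were COL1A2, STEAP3 and ARSJ, with Pearson's r of 1.00 (0.9996), 0.998 and 0.998. For ANXA1 they were SBF1, INPP4B and PRKACB, with r of 0.999, 0.998 and 0.998. With 6 points in 2 groups such values are common, as 684 genes reached 0.95 with CHI3L1 and 681 with ANXA1, and SBF1, which differed by only 0.07 on the log2 scale, was not called (edgeR adjusted p = 0.0697).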

How the data were processed

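Poly(A) RNA of control and RSL3-treated U87MG cells was sequenced in pairs. The authors trimmed reads (Trimmomatic 0.36 in the submitters' processing notes), used HISAT2 for alignment to GRCh38.p4 and HTSeq 0.6.1p1 for unstranded counting over exons. The deposited values are raw read counts per Ensembl gene, and the release of the annotation is not given in the sources used here. The study tested with DESeq2 after surrogate variable analysis.

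Counts were analysed with edgeR 4.0.16 in R 4.3.3 (filterByExpr with a minimum count of 10, TMM, quasi-likelihood F test over 16105 genes, no covariates). RPKM used merged exons of GENCODE v44, which gave lengths for 15682 of the genes tested. Symbols were found for 14680 of them. The alternatives were DESeq2 1.42.0 with 0 to 2 surrogate variables (sva 3.50.0), other size factors, filters and thresholds, a replicate block and leaving out each library. Scripts were tested on simulated data. Replicates of a group differed by more than sampling noise (chi-square of 2.39 or more per degree of freedom).

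The members and the 18 gene lists were chosen with earlier results of these data known. The text names all members, from each list up to 2 genes per direction with the lowest p and the one with the highest control level, and the 3 genes most like the member that had the lowest p of each direction. Some genes that this rule names are not reported here. STAT3, S100A2, CLIC1, S100B, OLIG1, SOX10 and the other genes given by counts of 3 or fewer were chosen after their values were seen.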

Additional observations from a re-analysis of the deposited data

How the results depend on the processing

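For the members, 14 alternative fits each kept the direction of CHI3L1 (log2 fold change -0.62 to -0.51), CD44 (-0.42 to -0.37), VIM (-0.30 to -0.28) and ANXA1 (0.28 to 0.34) and their calls. The exceptions were S100A6, not called in DESeq2 with 0 or 1 surrogate variables (-0.15, adjusted p = 0.0695 and 0.0588), and GFAP, called without RSL3 replicate 3 (0.49). Leaving out each library in turn gave 1 to 2 members called higher and 4 lower, 0.28 to 0.50 for GFAP and -0.19 to -0.10 for S100A6. A minimum log2 change of 1 in size left 0 members in either direction, 2 list genes higher and 9 lower instead of 40 and 79, and 106 and 107 genes in all. DESeq2 with 2 surrogate variables called 1158 genes higher and 1110 lower, and an adjusted p under 0.01 called 1348 and 1343, against 2082 and 2041. The cause was not tested. With the longest transcript as length, control levels were 1732 RPKM for S100A6, 751 for VIM, 677 for ANXA1, 133 for CD44, 93.0 for CHI3L1 and 0.556 for GFAP, because the annotated exons of all transcripts add up to more bases. CNP, not called, ranged from -0.027 to 0.0078 when each library was left out and was above 0 without control or RSL3 replicate 1 (0.0078 and 0.0056).

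Samples share only a replicate number: the deviations of same-numbered libraries correlated by 0.022, 0.027 and 0.074. With the replicate block 2350 genes were called higher and 2283 lower, and the members called were 1 higher and 4 lower. In all, 861 of 896 log2 fold changes of members and named genes kept direction and side of the threshold, 29 lost a call, 4 gained one and 2 reversed. Depth limits SOX2, NES and GFAP, the rarest members.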

Other observations

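The hypoxia-linked mesenchymal-like list, the other mesenchymal program described in glioblastoma, did not lean to one side. All 30 genes were tested, with 9 called higher, 9 lower and a median log2 fold change of 0.01. The share called was 60%, beside 25.6% of all genes tested and 41.6% of those with a mean normalized count of at least 1000. GDF15, a secreted stress cytokine and the most abundant of the list at 494 RPKM in control, rose by 0.61 (edgeR adjusted p = 4.30e-11), and SLC2A1, the glucose transporter GLUT1, rose by 0.37 (edgeR adjusted p = 7.56e-08). LDHA, lactate dehydrogenase A, and NRN1, neuritin, fell by 0.38 and 0.32 (edgeR adjusted p = 3.71e-06 and 2.68e-05).

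Of 24 neural progenitor-like genes 12 were tested, with 2 called higher, 3 lower and a median of -0.11. The share called was 41.7%, beside 25.6% of all genes tested. MLLT11 and BEX1 both rose by 0.39 (edgeR adjusted p = 2.01e-07 and 1.19e-05), CD24 fell from 50.7 to 22.6 mean normalized counts (edgeR adjusted p = 0.00551) together with SOX4, and RND3, the most abundant at 168 RPKM in control, was not called (log2 fold change 0.04, edgeR adjusted p = 0.442). Among neuron markers, 4 of 6 were tested, with SYT1 higher (0.24) and SNAP25 lower (-1.04). Among oligodendrocyte markers, 2 of 6 were tested, with MBP higher (0.71) and CNP not called (-0.01).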
